A study of Mus musculus with 4 samples.

Results

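The Myc, Max and Mxd network is a set of transcription factors of the basic helix-loop-helix leucine zipper class, and its 10 genes Myc, Mycn, Mycl, Max, Mxd1, Mxd4, Mxi1, Mnt, Mga and Mlx were taken by name from the 37140 genes that all 4 deposited count tables list. RNA-seq had been run on mouse bone marrow hematopoietic stem cells (HSCs) of strain C57Bl6, sorted from tibiae, femora and humeri, with and without Gfi1b, a transcriptional repressor of blood cells. The first population was gated as Lin- cKit+ Sca1+ CD48- CD150+ cells and is called HSCs here. The other was gated as HSCs with low CD41 and CD9 and is called CD41low/CD9low HSCs. The labels set no limit on CD41 or CD9 for the first gate, whereas the study elsewhere calls that population positive for both, so that it may hold the second or be separate from it. Each population gave 1 WT and 1 KO library, so that there were 4 libraries in all. The KO mice carried floxed Gfi1b and Rosa-CreER, a ubiquitous, tamoxifen-inducible recombinase, and all mice of the comparison had been given tamoxifen according to the study's methods. The sources differ on the WT mice, which the methods give as Rosa-Cre with 1 floxed allele and the series text as floxed mice without Cre. Ages were not given in the sources used here, and the marrow of several mice of a genotype was pooled before sorting. Both libraries of a genotype may therefore come from the same animals. The sample titles name Gfi1 as the gene that was WT or KO, whereas the genotype labels and the study name Gfi1b, which is used here.

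Most members of this network pair with Max. Myc, Mycn and Mycl pair with Max, bind the E-box CACGTG and raise transcription of genes for ribosome assembly, nucleotide synthesis and growth. Mxd1, Mxi1, Mxd4 and Mnt also pair with Max, but recruit Sin3 and histone deacetylases to the same sites and act against Myc. Mga pairs with Max inside a Polycomb complex. Mlx does not pair with Max, but pairs separately with some of the antagonists and with the glucose-sensing factors Mlxip (MondoA) and Mlxipl. In HSCs, Myc and Mycn are known to act together in survival, and the balance of Myc proteins and their antagonists is known to bear on self-renewal and exit from the niche.

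The promoters of the members themselves were read for the E-box, since it is the sequence the network binds. RefSeq windows of 300 bases on GRCm38.p6, from 250 before to 50 after a start site, were at hand for 9 of the 10 members, all but Myc. CACGTG, which reads the same on both strands, stood in the window of 4 of these 9 genes, against 7.15% of all 32851 windows and 10.85% of the 9690 windows with at least 60% G and C. The 4 windows are printed 5′ to 3′ on the strand of the gene, with the E-box in capitals. Their E-boxes began 219 bases before the start site in Mxd4, 123 before it in Mnt, 40 before it in Mlx and 3 before it in Max, where the motif spans the start.
Max, chr12:76962199-76962498, minus strand: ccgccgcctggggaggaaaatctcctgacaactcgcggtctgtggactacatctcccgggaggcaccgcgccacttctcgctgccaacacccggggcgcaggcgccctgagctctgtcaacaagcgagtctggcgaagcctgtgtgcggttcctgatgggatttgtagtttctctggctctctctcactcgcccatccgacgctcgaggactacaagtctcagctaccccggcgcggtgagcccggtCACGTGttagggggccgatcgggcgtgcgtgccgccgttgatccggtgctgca
Mxd4, chr5:34187661-34187960, minus strand: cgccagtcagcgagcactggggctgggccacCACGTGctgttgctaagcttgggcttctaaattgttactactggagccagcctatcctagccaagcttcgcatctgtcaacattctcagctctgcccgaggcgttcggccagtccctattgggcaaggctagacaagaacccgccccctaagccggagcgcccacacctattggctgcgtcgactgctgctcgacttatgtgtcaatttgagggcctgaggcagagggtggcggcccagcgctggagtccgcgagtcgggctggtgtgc
Mnt, chr11:74830674-74830973, plus strand: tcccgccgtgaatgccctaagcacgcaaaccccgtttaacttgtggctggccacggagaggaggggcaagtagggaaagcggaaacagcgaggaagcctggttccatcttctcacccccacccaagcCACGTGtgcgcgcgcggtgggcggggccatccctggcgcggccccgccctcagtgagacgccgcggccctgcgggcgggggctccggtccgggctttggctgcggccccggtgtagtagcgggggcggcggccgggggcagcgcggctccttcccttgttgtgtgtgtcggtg
Mlx, chr11:101087040-101087339, plus strand: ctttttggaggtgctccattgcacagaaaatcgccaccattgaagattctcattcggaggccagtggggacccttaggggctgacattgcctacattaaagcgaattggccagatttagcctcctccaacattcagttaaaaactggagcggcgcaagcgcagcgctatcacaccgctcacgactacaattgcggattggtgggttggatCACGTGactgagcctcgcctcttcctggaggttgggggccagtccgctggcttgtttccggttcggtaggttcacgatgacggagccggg
Mycn, Mycl, Mxd1, Mxi1 and Mga had no CACGTG in their windows. Mxi1 had 3 windows, for 3 start sites. A gene was counted where any of its windows held the pattern, whereas the shares are of single windows. A total of 7 patterns were searched on both strands in these windows. The looser E-box CANNTG, which includes CACGTG, was found for 8 of the 9 genes and in 72.31% of all windows. AAATC, a core of Gfi1 and Gfi1b sites, was found for Max, Mlx, Mxi1 and Mycn and in 35.85% of all windows. Its shorter form AATC, which AAATC contains, was found for 6 genes and in 73.11% of windows. CTTTGA, a core of TCF and LEF sites, was found only for Mycn among the 9 genes, and in 16% of all windows. TTCAAAG, the same core with 1 base more on the other strand, was likewise found for Mycn alone of the 9, and in 5.14% of windows. CTTTG, which is part of both, was found for Mga, Mnt, Mxi1 and Mycn and in 53.93% of windows. A match is a stretch of letters and does not show binding.

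The libraries held 50781007 counts on genes in WT HSCs, 41690708 in KO HSCs, 12732079 in WT CD41low/CD9low HSCs and 19123185 in KO CD41low/CD9low HSCs. Gfi1b itself had a level of 182.3 CPM, a unit of counts relative to the total of each library, in WT and 1197 in KO HSCs, and 47.99 and 509.4 in the other pair. The targeted gene thus had more counts in the libraries labelled KO. These counts cover the whole gene, including exons outside the floxed part, and do not check the deletion. The study reports, as its own check, that the floxed exons were not expressed in its HSCs and megakaryocytes after deletion. WT and KO below mean the libraries so labelled. The markers of HSCs summed to between 1978 and 2559 CPM over 10 genes in the 4 libraries, with none of the 10 at 0. Megakaryocyte markers (8 genes) summed to 1679 CPM in WT and 2392 in KO HSCs, but to 530.9 and 634.9 CPM in the CD41low/CD9low pair, where Gp1bb was at 0 in WT. Neutrophil and myeloid progenitor markers (9 genes, none at 0) summed to 450.5, 539.1, 1124 and 281.1 CPM in the same order, and all 9 were below a KO/WT ratio of 0.6 in CD41low/CD9low HSCs. Erythroid markers (6 genes) summed to 60.22, 36.36, 54.59 and 17.31 CPM, and in CD41low/CD9low HSCs 5 of the 6 were below a ratio of 0.6. Of all genes with at least 10 counts in a library of that pair, 12% were below 0.6. B cell markers (5 genes) summed to 22.35 CPM in WT and 17.89 in KO HSCs. In the CD41low/CD9low pair they summed to 30.79 in WT and 28.24 in KO, above the erythroid sum in KO. There 4 of the 5 were at 0 in WT and 3 in KO, and Cd79b alone had 30.79 and 28.03 CPM. T cell markers (4 genes) summed to 7.461 CPM or less, with 3 at 0 in either library of that pair. The part of such differences in the values that follow was not tested.

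Mycn was the member with the highest level per exon length in all 4 libraries, and Myc or Mga came next. In RPKM, the counts per kilobase of exon scaled to the library total, Mycn stood at 55.8 in WT HSCs, 53.55 in KO HSCs, 51.44 in WT CD41low/CD9low HSCs and 47.86 in KO CD41low/CD9low HSCs. Myc stood at 39.91, 34.17, 30.15 and 22.63 RPKM in the same libraries. The level of Mycn was 1.40 times that of Myc in WT HSCs, 1.57 times in KO HSCs, 1.71 times in WT CD41low/CD9low HSCs and 2.12 times in KO CD41low/CD9low HSCs. Both genes are proto-oncogenes whose proteins bind the same E-box with Max. Mycl, the third Myc gene, was close to absent, with 11 counts in WT HSCs, 30 in KO HSCs and 0 in either CD41low/CD9low library. A count of 0 allows up to 3 counts, or 0.236 CPM in the WT and 0.157 CPM in the KO library of that population.

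**Figure D1:**
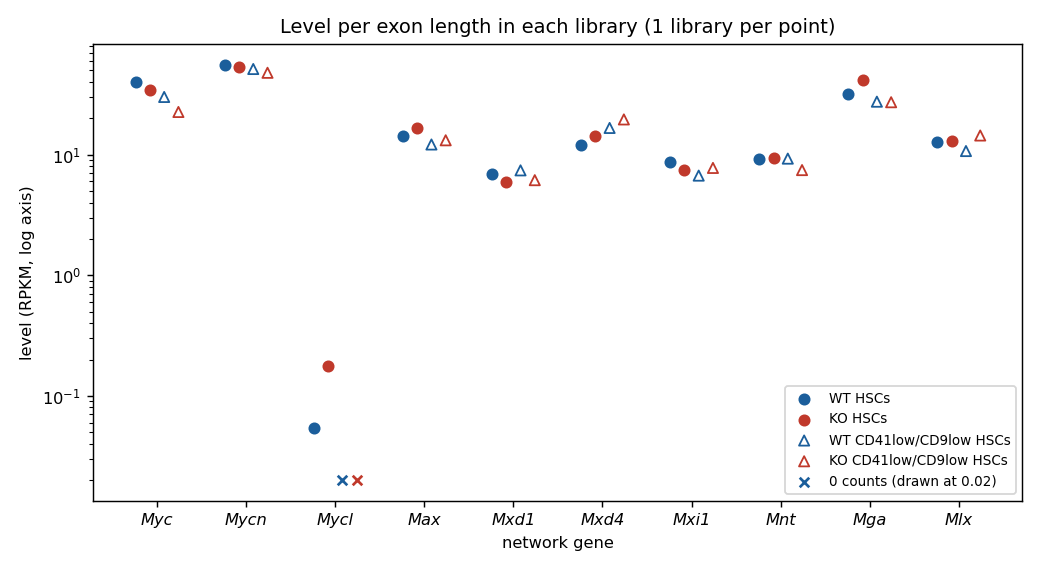
Level of each network gene in RPKM (log axis), 1 point for each of the 4 libraries. Circles are HSCs and triangles CD41low/CD9low HSCs, blue for WT and red for KO, and crosses mark 0 counts. Mycn is highest and Mycl lowest in every library, and Myc falls from 39.91 in WT HSCs to 22.63 in KO CD41low/CD9low HSCs.

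Among the partners, Mga had the highest level, at 31.9, 41.95, 27.56 and 27.27 RPKM in WT HSCs, KO HSCs and the WT and KO CD41low/CD9low libraries. It changed places with Myc, lying below it in both WT libraries and above it in both KO libraries. In HSCs this exchange was lost with the correction for gene length given below, under which the KO level was 34.82 for Mga and 37.35 for Myc. Max, the shared partner, had 14.41, 16.67, 12.16 and 13.18 RPKM. Mlx had 12.68, 13.1, 10.73 and 14.44 RPKM, and its exons overlap those of Psmc3ip on the other strand, which had between 186 and 569 counts. The strand setting of the counting was not given in the sources used here, so reads of the overlap may have been shared or dropped. The summed level of Myc and Mycn was 6.64 times the level of Max in WT HSCs, 5.26 times in KO HSCs, 6.71 times in WT and 5.35 times in KO CD41low/CD9low HSCs.

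Of the antagonists, Mxd4 was the most abundant, with 12.13 RPKM in WT HSCs, 14.21 in KO HSCs, 16.68 in WT and 19.63 in KO CD41low/CD9low HSCs. Mnt ranged from 7.459 to 9.471 RPKM, Mxi1 from 6.711 to 8.627 and Mxd1 from 5.925 to 7.419. The summed level of Mxd1, Mxd4 and Mxi1 was 0.289 times that of the 3 Myc genes in WT HSCs, 0.314 in KO HSCs, 0.378 in WT and 0.476 in KO CD41low/CD9low HSCs. The share of Mxd4 in this sum was 43.78%, 51.52%, 54.14% and 58.5% in the same order. In WT HSCs, the exact 95% Poisson intervals of neighbours in the order overlapped for Mlx with Mxd4 and for Mnt with Mxi1. In KO HSCs they overlapped for Mxd4 with Mlx. In the CD41low/CD9low libraries they overlapped for Max with Mlx, Mlx with Mnt and Mxd1 with Mxi1 in WT, and for Mlx with Max and Mxi1 with Mnt in KO. These intervals cover counting error only. Levels between genes depend on the length used. With the longest annotated coding transcript in place of all exons, Mycn stayed first, and its level was 1.48, 1.66, 1.81 and 2.24 times that of Myc. Mxd4 then had 26.57, 31.13, 36.55 and 43 RPKM and passed Myc in both CD41low/CD9low libraries. The sum of Myc and Mycn was then 4.31, 3.42, 4.37 and 3.49 times the level of Max, and the sum of the 3 Mxd genes 0.424, 0.474, 0.578 and 0.737 times that of the Myc genes.

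The first question of the design was what the loss of Gfi1b changed within a population. Myc was lower in KO than in WT in both populations and Mxd4 was higher in both, but these were differences below the fold by which the study selected genes, a KO/WT ratio above 1.5 or below 0.6. Ratios are of counts divided by median-of-ratios size factors, with an exact (Clopper-Pearson) 95% interval for counting error alone, since 1 library per group leaves no spread between samples and no test. Past these limits was 1 of 10 members in HSCs, Mycl with its 11 and 30 counts, and 0 of 9 in CD41low/CD9low HSCs. Of all genes with at least 10 counts in a library of the pair, 24.4% were past them in HSCs, 14.1% above and 10.3% below, and 25.5% in CD41low/CD9low HSCs, 13.4% above and 12% below. Of genes with at least 500 counts, among them the 9 members other than Mycl, the shares were 9.62% and 3.79%.

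Myc, on chr15:61985391-61990374 (GRCm38, plus strand), had 5506 counts in WT and 3870 in KO HSCs, or 108.4 and 92.83 CPM, and a ratio of 0.868 (95% interval 0.832 to 0.904). In CD41low/CD9low HSCs it had 1043 and 1176 counts, or 81.92 and 61.5 CPM, and a ratio of 0.752 (0.691 to 0.818). Both intervals lie below 1. Mycn, on chr12:12936093-12941914 (minus strand), had 9337 and 7356 counts in HSCs, with a ratio of 0.972 (0.943 to 1.003). In the other pair it had 2158 and 3016 counts, with a ratio of 0.932 (0.881 to 0.985). Mycl, on chr4:122995652-123002485, had a ratio of 3.37 in HSCs with an interval from 1.64 to 7.45, and could not be measured in CD41low/CD9low HSCs.

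Max, on chr12:76937269-76962201, had 2632 and 2501 counts in WT and KO HSCs, with a ratio of 1.17 (1.11 to 1.24). In CD41low/CD9low HSCs it had 557 and 907 counts and a ratio of 1.09 (0.976 to 1.21), an interval that includes 1. Mga, on chr2:119897228-119969581, had 24850 and 26827 counts in HSCs, which gave a ratio of 1.33 (1.31 to 1.36), but 5383 and 8000 counts and a ratio of 0.991 (0.957 to 1.03) in CD41low/CD9low HSCs. The ratio in HSCs moved with gene length. The median ratio of all genes there was 0.888 in the bin with the shortest exons of 4 equal bins, then 0.944, 1.02 and 1.12 in the bin with the longest. Mga has 15340 bases of exon, and its HSC ratio was 1.09 after division by the median of 500 genes of similar length. By the same step Myc came to 0.936. In CD41low/CD9low HSCs the bins ranged from 0.974 to 1.01, and Myc came to 0.758. Mlx, on chr11:101087277-101092207, had 1287 and 1092 counts and a ratio of 1.05 (0.965 to 1.14) in HSCs, and 273 and 552 counts and a ratio of 1.35 (1.16 to 1.56) in the other pair.

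Mxd4, on chr5:34173883-34187720, had 5225 and 5026 counts in HSCs and 1802 and 3184 in CD41low/CD9low HSCs. Its ratios were 1.19 (1.14 to 1.23) and 1.18 (1.11 to 1.25), and in HSCs 1.08 after correction for length. Mxd1, on chr6:86647042-86669161, had 2496 and 1747 counts in HSCs and 668 and 832 in the other pair, with ratios of 0.864 (0.812 to 0.919) and 0.830 (0.749 to 0.921). These 2 antagonists thus lay on opposite sides of 1, each on the same side in both populations. Mxi1, on chr19:53310518-53375810, had 2989 and 2118 counts in HSCs, which gave a ratio of 0.875 (0.827 to 0.925), but 583 and 1014 counts and a ratio of 1.16 (1.05 to 1.29) in CD41low/CD9low HSCs. Mnt, on chr11:74830920-74845725, had 2175 and 1827 counts and a ratio of 1.04 (0.974 to 1.10) in HSCs, and 547 and 660 counts and a ratio of 0.804 (0.717 to 0.903) in the other pair. Of the 9 members measured in both populations, 6 had their ratios on the same side of 1, and 5 after correction for length, when Mycn came to 1.03 in HSCs and 0.962 in CD41low/CD9low HSCs. Of all 14144 genes that passed the filter in both, 56.54% had ratios on the same side.

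**Figure D2:**
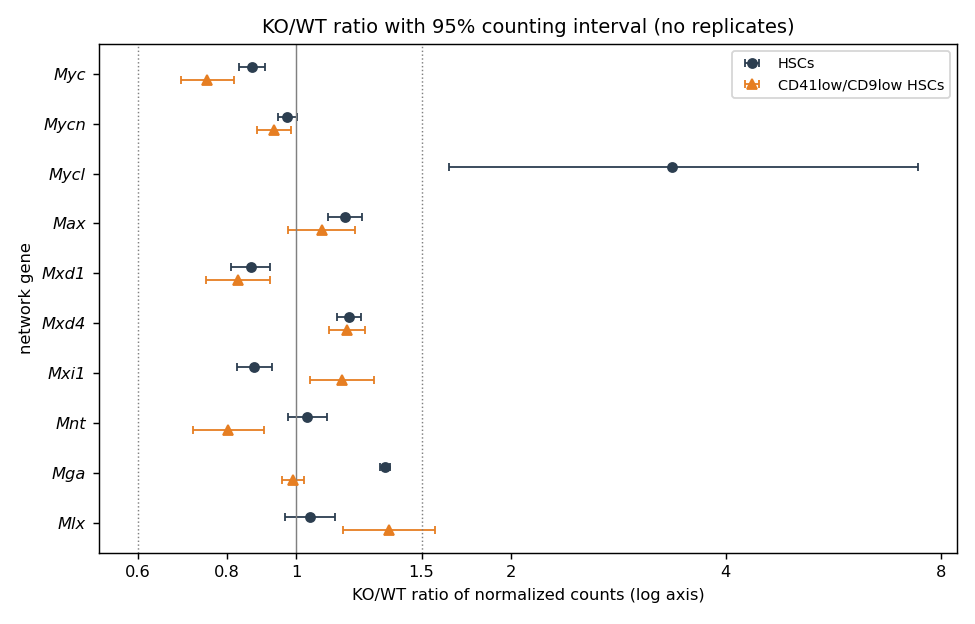
KO/WT ratio of normalized counts (log axis) for each network gene in HSCs (circles) and CD41low/CD9low HSCs (triangles), with bars for the 95% interval of counting error. Dotted lines mark 0.6 and 1.5, and all points but Mycl in HSCs, at 3.37, lie between them.

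Of the wider family, Mlxip, which pairs with Mlx, had 4398 and 5270 counts and a ratio of 1.48 (1.42 to 1.54) in HSCs, and 1321 and 2074 counts and a ratio of 1.05 (0.976 to 1.12) in CD41low/CD9low HSCs. Mxd3, a further Max partner whose exons overlap those of Prelid1 on the other strand, had 428 and 266 counts and a ratio of 0.767 (0.656 to 0.896) in HSCs, and 152 and 194 counts and a ratio of 0.851 (0.685 to 1.06) in the other pair. After correction for length the HSC ratios were 1.35 for Mlxip and 0.827 for Mxd3. Mlxipl had 5 counts in each HSC library and 0 in the others, which is too few for a comparison.

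A fit over all 4 libraries, in which the populations stood in for replicates of the genotype, called no member for genotype. Since the libraries of a genotype may share animals, its p-values measure the spread between these libraries and not that between mice, for genotype and population alike. In the main edgeR fit that spread was pooled over genes. A gene's own spread had no weight in its p-value or SE there. With edgeR's quasi-likelihood test and Benjamini-Hochberg adjustment over 16262 genes, 0 of the 10 members had an adjusted p under 0.05, and 0 had an unadjusted p under 0.05. Of all genes, 1.62% were higher and 1.19% lower in KO. Myc had the lowest adjusted p of the 10, with a log2 difference between KO and WT of -0.31 ± 0.16 (SE) and an edgeR adjusted p of 0.484. DESeq2 also called 0 of the 10. The fit rested on 1 residual degree of freedom. The missing call does not show that a member was the same in both genotypes.

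The second question was how the populations differed. Myc and Mga were lower in CD41low/CD9low HSCs than in HSCs in both genotypes, and passed the test in each of the 6 fits run. The CPM of Myc in CD41low/CD9low HSCs was 0.756 times that in HSCs among WT libraries and 0.663 times among KO libraries. In edgeR's quasi-likelihood fit Myc fell by 0.56 ± 0.16 (SE) on the log2 scale, with an adjusted p of 0.0045. The CPM of Mga was 0.864 times as high among WT and 0.650 times among KO libraries. Its log2 difference was -0.48 ± 0.14, with an edgeR adjusted p of 0.0062. None of the 6 fits corrected for gene length. With that correction the KO/WT ratio of Mga in HSCs had come from 1.33 to 1.09. The part of the length trend in its difference between the populations was not tested. Mxd4 was higher in CD41low/CD9low HSCs, with 1.38 times the CPM among both WT and KO libraries and a log2 difference of 0.40 ± 0.16. Its edgeR adjusted p was 0.0463, and the call was lost in 4 of the 6 fits, where the adjusted p lay between 0.0557 and 0.0924. In these calls 9.11% of all genes were higher and 13.7% lower in CD41low/CD9low HSCs, so that 3 of 10 members stands near the share of all genes.

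The other 7 members did not pass. Max had a log2 difference of -0.35 ± 0.18, an unadjusted p of 0.0487 and an edgeR adjusted p of 0.154. Mycn had -0.20 ± 0.15, Mnt -0.23 ± 0.19, Mxi1 -0.21 ± 0.18, Mlx -0.11 ± 0.24 and Mxd1 0.01 ± 0.18. The populations also differed in depth, in the set of genes counted and in their megakaryocyte and immediate-early genes. These differences cannot be told apart from the gate. In bulk RNA, fewer cells of a type and less RNA per cell cannot be told apart either.

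**Figure D3:**
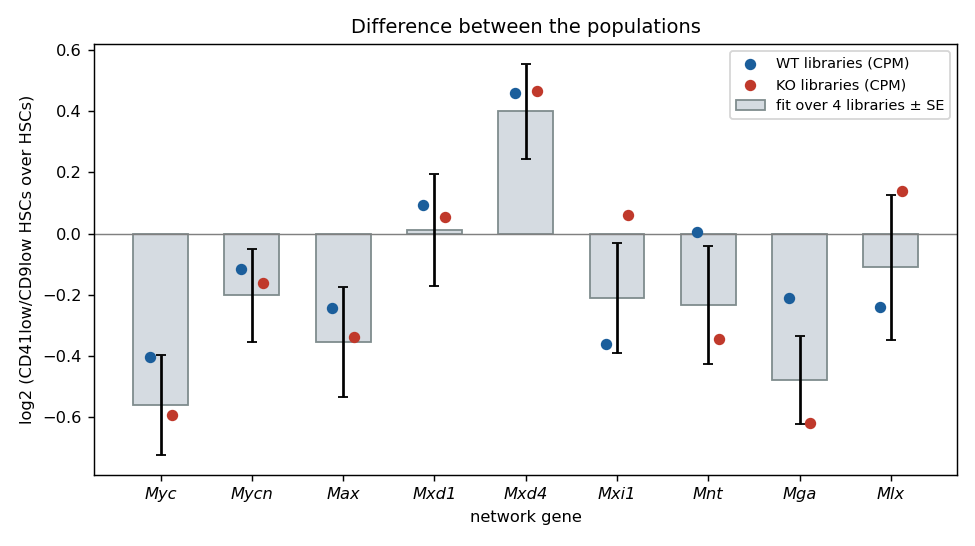
Log2 difference of CD41low/CD9low HSCs over HSCs for the 9 network genes other than Mycl. Bars are the edgeR fit over 4 libraries with its SE, and points the ratio of CPM among WT (blue) and KO (red) libraries, which lack the TMM scaling of the fit. Myc (-0.56) and Mga (-0.48) lie lowest and Mxd4 (0.40) highest.

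Genes that Myc is known to drive lay below 1 in KO HSCs for the most part, by less than the fold used for calls. Of 24 Myc targets in ribosome biogenesis, 23 had a KO/WT ratio below 1 in HSCs, with a median of 0.806. Below 0.6 were 2 of the 24, against 10.3% of all genes tested. Among genes with at least 500 counts in an HSC library, these 24 included, the 5th percentile of the ratio was 0.687. Of 26 Myc targets in metabolism and growth, 25 were below 1, with a median of 0.830, and none was past a limit. Of all genes tested, 49.98% were below 1 in HSCs and 48.96% in CD41low/CD9low HSCs, and the median ratio was at or near 1 in both. In CD41low/CD9low HSCs 19 of the 24 genes were below 1 with a median of 0.936, and 20 of the 26 with a median of 0.886. After correction for length the medians were 0.817 and 0.900 in HSCs and 0.928 and 0.895 in CD41low/CD9low HSCs. Genes of a list share regulators and libraries, so these counts carry no test.

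Among the ribosome biogenesis genes in HSCs, Ppan, needed for the large ribosomal subunit, was lowest with a ratio of 0.566 (0.543 to 0.589), and Utp20, of the small-subunit processome, was highest with 1.15. Ncl, the nucleolar protein nucleolin, had a ratio of 0.596 in HSCs and 0.884 in the other pair. Its log2 difference for genotype was -0.47 ± 0.14 with an edgeR adjusted p of 0.0291, past the threshold in 2 of 6 fits. Among the metabolic genes Odc1, the first enzyme of polyamine synthesis and a classic Myc target, was lowest in HSCs with 0.613 (0.589 to 0.639) and had 0.776 in CD41low/CD9low HSCs. Its log2 difference was -0.54 ± 0.16 with an edgeR adjusted p of 0.0264, again past the threshold in 2 of 6 fits. Tert, the telomerase reverse transcriptase, was lowest in CD41low/CD9low HSCs with 226 and 191 counts and a ratio of 0.563 (0.462 to 0.686), and Hspe1, a mitochondrial chaperonin, was highest and just above 1.5. No further gene of these lists was called for genotype, so that each list had 0 higher and 1 lower, and each had 0 calls with DESeq2.

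Of 7 targets of MondoA and Mlx, 5 had ratios above 1 in either population, with medians of 1.17 and 1.11. Txnip, an inhibitor of glucose uptake, had ratios of 1.47 and 1.25, a log2 difference of 0.43 ± 0.13 and an edgeR adjusted p of 0.0418, past the threshold in 2 of 6 fits. It was the list's single call, and Hk2, a hexokinase, was lowest in HSCs with 0.606. After correction for length the HSC ratios were 1.57 for Txnip and 0.582 for Hk2, both past the limits of 1.5 and 0.6.

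The companions of the network had no genotype call in the edgeR fit or with DESeq2. Of 12 Myc cofactors, 15 genes of Myc turnover, 13 corepressors of Mxd and Mnt and 14 partners of Mga in its Polycomb complex, 0 were past a limit in HSCs. The share past a limit there was 24.4% of all genes tested and 9.62% of those with at least 500 counts. In HSCs 8, 8, 11 and 10 genes of these 4 lists were below 1, against 49.98% of all genes tested. In CD41low/CD9low HSCs 3, 6, 8 and 4 were, against 48.96%. In HSCs the medians of these lists were 0.959, 0.970, 0.910 and 0.953, and in CD41low/CD9low HSCs 1.05, 1.03, 0.963 and 1.07. There, 2 of the 14 partners of Mga were above 1.5, Pcgf6 and Rybp, both Polycomb subunits. The share above 1.5 was 13.4% of all genes tested. Among genes with at least 500 counts in a library of that pair, the 95th percentile of the ratio was 1.4. Rybp had 147 and 340 counts and so is not among these. Pcgf6 had 196 and 512 counts and a ratio of 1.74 (1.47 to 2.06), and 0.909 in HSCs. Fixed by the same rule, the largest ratios in HSCs were Trrap (1.44) among cofactors, Huwe1 (1.40), a ubiquitin ligase, in turnover, and Ncor1 (1.45) among corepressors. After correction for length they came to 1.13, 1.10 and 1.25, and Trrap and Huwe1 were no longer the highest of their lists. The lowest in HSCs were Paf1 (0.679) among cofactors, Pim2 (0.613) in turnover and Ing2 (0.690) among corepressors.

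Immediate-early genes, which cells switch on within minutes of a stimulus and among which Myc is often counted, showed the widest range of the lists. In HSCs 20 of 24 were below 0.6 and 1 above 1.5, with a median of 0.311. In CD41low/CD9low HSCs 4 of the 20 measured were below 0.6 and 4 above 1.5, with a median of 0.825. Of all genes tested, 10.3% were below 0.6 and 14.1% above 1.5 in HSCs, and 12% and 13.4% in CD41low/CD9low HSCs. Atf3 had the lowest ratio in HSCs, 0.113, from 930 and 85 counts. For genotype, edgeR called 1 higher and 14 lower, against 1.62% and 1.19% of all genes. The legacy=FALSE form of the test called 1 and 6, and DESeq2 1 and 4. The genes called lower were not all lower in both populations. Egr1 had ratios of 0.317 in HSCs and 1.24 in CD41low/CD9low HSCs, and Klf6 0.305 and 1.24. Sgk1, a kinase, was the gene called higher, and Nr4a1, an orphan nuclear receptor, had a log2 difference of -2.11 ± 0.20 with an edgeR adjusted p of 5.63e-22. Both passed in all 6 fits. Between the populations, 20 of the 24 were lower and 1 higher in CD41low/CD9low HSCs, against 13.7% and 9.11% of all genes. Myc was lower in the same libraries, and the part of the immediate-early state in its level was not tested.

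**Figure D4:**
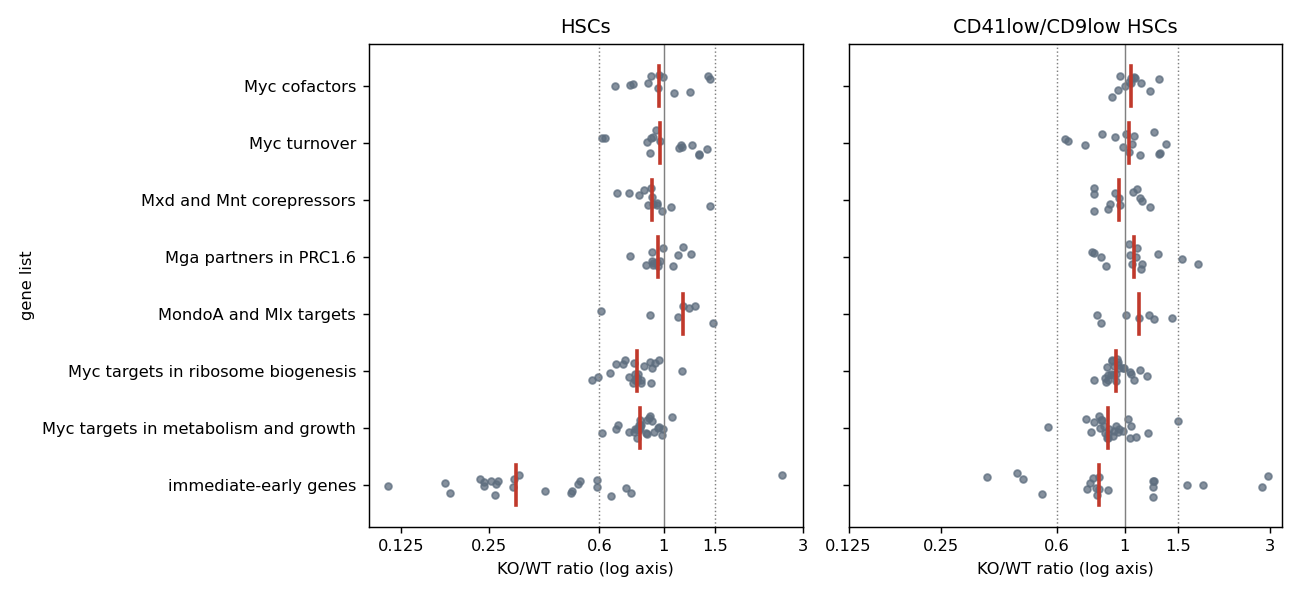
KO/WT ratio (log axis) of each gene that passed the count filter in 8 lists, in HSCs (left) and CD41low/CD9low HSCs (right). Red bars are medians and dotted lines 0.6 and 1.5, and 4 immediate-early genes that failed the filter in CD41low/CD9low HSCs, Atf3 among them, are not drawn there. The Myc target lists lie below 1 in HSCs, with medians of 0.806 and 0.830, and the immediate-early genes lie lowest at 0.311.

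The genes whose levels followed Myc most closely over the 4 libraries included Sfxn1, Sar1b, Smc3 and Slc35d2. Likeness was the distance between log2 CPM values centred on each gene's mean, among 10136 genes with at least 100 counts in each library. It was 0.0267 for Sfxn1, a mitochondrial serine transporter, 0.0380 for Sar1b, 0.0491 for Smc3, a cohesin subunit, and 0.0590 for Slc35d2. The CPM of Smc3 was 279.5, 241.2, 209.9 and 164.7 in WT HSCs, KO HSCs and the WT and KO CD41low/CD9low libraries, in the same falling order as Myc. Of the members, Mnt (0.382) and Mycn (0.437) were nearest to Myc and Mxd4 (1.11) the farthest of those measured in all libraries. With 4 libraries, many genes share such an order.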

How the data were processed

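RNA had been made into libraries with a TruSeq Stranded mRNA kit, and per the labels reads were aligned to mm10 with TopHat2 2.0.10, and SAMtools, HTSeq and DESeq were used. The authors deposited raw HTSeq counts per Ensembl gene, 1 table per library, with no normalization. The annotation release and strand setting are not given in the sources used here. The 2 populations list different gene sets, with 37140 genes in common. Rows that name no gene were left out. Reads in no feature came to 80, 105.3, 62.02 and 60.12 per 100 counts on genes in WT and KO HSCs and WT and KO CD41low/CD9low HSCs.

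Names, coordinates and exon lengths came from GENCODE M21 (GRCm38), and promoter sequences from RefSeq on GRCm38.p6. From the counts were computed CPM, RPKM and KO/WT ratios on median-of-ratios size factors, for genes with at least 10 counts in a library. Called meant above 1.5 or below 0.6, limits the study used to select genes. Intervals are 95% Clopper-Pearson or exact Poisson and cover counting error only, since each group is 1 library. These PCR-amplified reads carry no molecular identifiers, so duplicate reads may make the intervals too narrow.

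Over 4 libraries, edgeR 4.0.16 (R 4.3.3; TMM, glmQLFit, glmQLFTest) was fitted with population and genotype, and SEs were taken from the F statistic. This was the installed default (legacy=TRUE), and its prior degrees of freedom were infinite. After its calls had been seen, the fit was run again with legacy=FALSE, where they were 10.63. It called 127 genes for genotype in place of 457. Other alternatives were DESeq2 1.42.0, RLE factors and filters of 0 or 50 counts. The code was tested on simulated data. P-values measure the spread between these libraries only, and in the main fit that spread was pooled over genes.

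All 10 members are named, along with Mxd3, Mlxip, Mlxipl and Gfi1b. From each list, at most the genes with the highest and lowest ratio in a population (at least 50 counts) and those with a genotype call are named, along with those of the 5 genes nearest to Myc that are reported. Some results that meet these rules are not reported here. Rybp was named after its value was seen. Members and lists were chosen with earlier results of these data known.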

Additional observations from a re-analysis of the deposited data

Results flagged for a closer look

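A named gene was taken up here where its KO/WT ratio lay above 1 in one population and below 1 in the other. With 1 library per group, the difference between the populations was not tested for any of them. Among the members these were Mxi1 (0.875 and 1.16), Mnt (1.04 and 0.804) and Mga (1.33 and 0.991), with the HSC ratio first and the CD41low/CD9low ratio second. The counting intervals of Mxi1 excluded 1 in both populations, and those of Mnt and Mga did so in 1.

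Among the companion genes reported, both intervals excluded 1 for Skp2 (1.15 and 0.638), Sin3b (0.906 and 1.21), Pcgf6 (0.909 and 1.74), Pfkfb4 (1.17 and 0.812), Rrp9 (0.733 and 1.18), Shmt1 (1.06 and 0.866), Hspe1 (0.827 and 1.5), Nr4a2 (0.232 and 2.96) and Klf6 (0.305 and 1.24). At least 1 interval included 1 for Paf1 (0.678 and 1.08), Pim2 (0.613 and 1.06), Yaf2 (0.765 and 1.13), Tkfc (0.898 and 1.43), Utp20 (1.15 and 0.989) and Egr1 (0.317 and 1.24).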

How the results depend on the processing

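No paired analysis was possible beyond the fit itself, because the labels carry no replicate numbers. The genotype term of the fit compares the genotypes within each population, and its population term the populations within each genotype. Leaving out a replicate was not possible either, since each group is 1 library. The genotype calls over all genes depended on the fit: 457 as reported, 240 with RLE factors, 420 with no filter, 128 with at least 50 counts, 127 with the legacy=FALSE method, which was added after seeing the data, and 100 with DESeq2. In all 6 fits 0 members were called for genotype. For the populations the calls were 3716 as reported, 2372 with DESeq2, 2920 with legacy=FALSE and between 3142 and 3601 otherwise. The members called were 3, or 2 without Mxd4 in the fits with RLE factors, DESeq2, no filter and legacy=FALSE.

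In HSCs the count of members past a limit was 0 in place of 1 with at least 50 counts, since Mycl then drops out. Companion genes past a limit were 23 in HSCs and 12 in CD41low/CD9low HSCs. Without the immediate-early list, an alternative added after seeing the data, they were 2 and 4. The lists held 12, 15, 13, 14, 7, 24 and 26 genes, and 24 immediate-early genes, 20 of them measured in the second pair. Among all genes tested, the share past a limit was 24.4% for the HSC pair and 25.5% for the other. With at least 500 counts it was 9.62% and 3.79%. Mxi1 changed sign for genotype from -0.0024 to 0.0012 with RLE factors, 0.0028 with DESeq2, 0.0077 with no filter and 0.0021 with at least 50 counts, and Mxd1 changed sign for population to -0.017 with no filter. Both were near 0 and not called, and the cause was not tested. With the exon-length correction 7 member ratios in HSCs left their counting intervals, and of these Mycn passed from below to above 1: Myc 0.936, Mycn 1.03, Mxd1 0.808, Mxd4 1.08, Mxi1 0.819, Mga 1.09 and Mlx 1.15.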
